A study of Mus musculus with 6 samples.

Results

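The 7 mouse genes that carry the name seminal vesicle secretion, Svs1, Svs2, Svs3a, Svs3b, Svs4, Svs5 and Svs6, were followed across bulk RNA-seq libraries of the 3 prostate lobes. They were taken by symbol, as 7 of the 24908 genes of the expression table, and all 7 were found. There was 1 library per lobe and genotype, 6 in all. The lobes were the ventral prostate (VP), the anterior prostate (AP) and the dorsolateral prostate (DLP). The WT libraries came from 1 wild-type FVB male. The MYC libraries came from 1 FVB male heterozygous for the Hi-MYC transgene, a human c-MYC driven in prostate epithelium by the androgen-responsive ARR2Pb promoter. Both males were 12 weeks old and on the same purified diet. Each lobe was dissociated to single cells, and poly(A) RNA of part of the suspension was sequenced. No library of seminal vesicle was analysed here, so that a level of these genes could not be turned into an amount of seminal vesicle tissue. With 1 library per group there is no replicate check, genotype and mouse cannot be told apart, and no p-value was computed.

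The seminal vesicles are paired glands that grow from the Wolffian duct, whereas the prostate lobes grow from the urogenital sinus. The anterior prostate, also called the coagulating gland, lies along the inner curve of each seminal vesicle. Under androgen, the seminal vesicle epithelium secretes a few proteins in very large amounts. After mating, the transglutaminase TGM4 of the anterior prostate cross-links some of them into the copulatory plug. SVS2 is the main clotting protein of the plug, and SVS3A and SVS3B are further proteins of the coagulum. SVS4, SVS5 and SVS6 are small secreted proteins of the same rapidly evolving family, and SVS1 is unrelated to it and resembles copper-containing amine oxidases.

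On the assembly GRCm38.p6 (mm10), 6 of the 7 genes lie on chromosome 2 within 98466 bases, in the order Svs2, Svs3b, Svs4, Svs3a, Svs6 and Svs5. Svs1 lies alone on chromosome 6. The 150 bases before the RefSeq start of 5 genes of the cluster are shown, 5′ to 3′ on the strand of the gene, because they set the most alike pairs of promoters beside the RNA levels that follow. Capitals mark TATAAA, the TATA box, on either strand, and AGAACA, the core of an androgen receptor site.
Svs3b: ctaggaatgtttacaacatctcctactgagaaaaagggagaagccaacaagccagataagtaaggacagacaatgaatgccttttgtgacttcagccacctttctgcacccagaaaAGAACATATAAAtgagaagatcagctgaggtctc
Svs3a: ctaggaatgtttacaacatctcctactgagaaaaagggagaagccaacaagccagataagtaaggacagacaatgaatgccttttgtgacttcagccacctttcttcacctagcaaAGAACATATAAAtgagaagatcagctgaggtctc
Svs4: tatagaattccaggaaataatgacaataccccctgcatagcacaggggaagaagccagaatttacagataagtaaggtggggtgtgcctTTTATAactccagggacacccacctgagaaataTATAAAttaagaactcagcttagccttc
Svs6: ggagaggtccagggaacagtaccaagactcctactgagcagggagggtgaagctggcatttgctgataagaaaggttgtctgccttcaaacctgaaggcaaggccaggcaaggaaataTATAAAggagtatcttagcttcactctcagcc
Svs5: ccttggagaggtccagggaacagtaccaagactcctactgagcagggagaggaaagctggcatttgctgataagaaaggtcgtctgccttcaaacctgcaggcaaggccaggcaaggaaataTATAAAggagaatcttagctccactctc
They were read at chr2:164256644-164256793 (minus strand), chr2:164289117-164289266 (plus), chr2:164278308-164278457 (minus), chr2:164316601-164316750 (plus) and chr2:164332615-164332764 (plus). In Svs3a, Svs3b, Svs4 and Svs5 the TATA box ran from base 28 to base 23 before the start, and in Svs6 from base 32 to base 27. The same letters on the gene's strand, anywhere in bases 21 to 40 before the start, were found in 1.87% of 32851 mouse promoters, and on either strand in all 150 bases in 7.57%. AGAACA, held on either strand by 9.62% of promoters, stood directly before the TATA box in Svs3a and Svs3b, without overlap. Svs4 carried a further TATA box letter match on the opposite strand, from base 61 to base 56. The forkhead core TGTTTAC, left in lower case, was found in Svs3a and Svs3b, and in 1.80% of all promoters. Neither Svs1 nor Svs2 held TATAAA in this window. Svs1 held AGAACA from base 127 to base 122, and Svs2 held CCAAT, found in 24.5% of promoters. These are matches of letters and not shown to be sites. The promoters of Svs3a and Svs3b were 98% identical and those of Svs5 and Svs6 90.26%.

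Levels are given in FPKM, a read density per length of transcript and per depth of library, so that genes can be compared with each other. Mapped reads, estimated from the steps between low FPKM values, ranged from 25.49 M in WT AP to 50.22 M in MYC AP. A value of 0 is given as listed at 0, since the table holds no counts and a 0 in it need not mean that a gene had no reads. The row Myc, which may hold reads of the human transgene too, had 230.0 FPKM in the AP, 200.6 in the DLP and 226.4 in the VP of the WT mouse. In the MYC mouse it had 230.9 FPKM in the AP, 586.1 in the DLP and 1696 in the VP. The gene was thus near its WT level in MYC AP, where it gives no check of the genotype label, and higher in the other MYC libraries.

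Svs4 and Svs5 were the genes of the family with by far the highest levels, and MYC AP was the library that held them. Svs4 had 292.5 FPKM in MYC AP, 4.682 FPKM in MYC DLP, and is listed at 0 in WT AP, WT DLP, WT VP and MYC VP. The estimated reads behind these levels were 7801 in MYC AP and 86 in MYC DLP. Svs5 had 212.0 FPKM in MYC AP (4557 reads) and 2.624 FPKM in MYC DLP (39 reads), and is listed at 0 in the other 4 libraries. They ranked 192nd and 255th of all genes in MYC AP. On the log2(FPKM + 1) scale the difference between MYC AP and WT AP was 8.20 for Svs4 and 7.73 for Svs5. With WT AP listed at 0, its size depends on the added constant. With 0.1 FPKM added it was 11.51 and 11.05, and with 0.01 FPKM 14.84 and 14.37. In WT AP, a count of 3 reads would have been 0.2216 FPKM of Svs4 and 0.275 FPKM of Svs5.

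**Figure D1:**
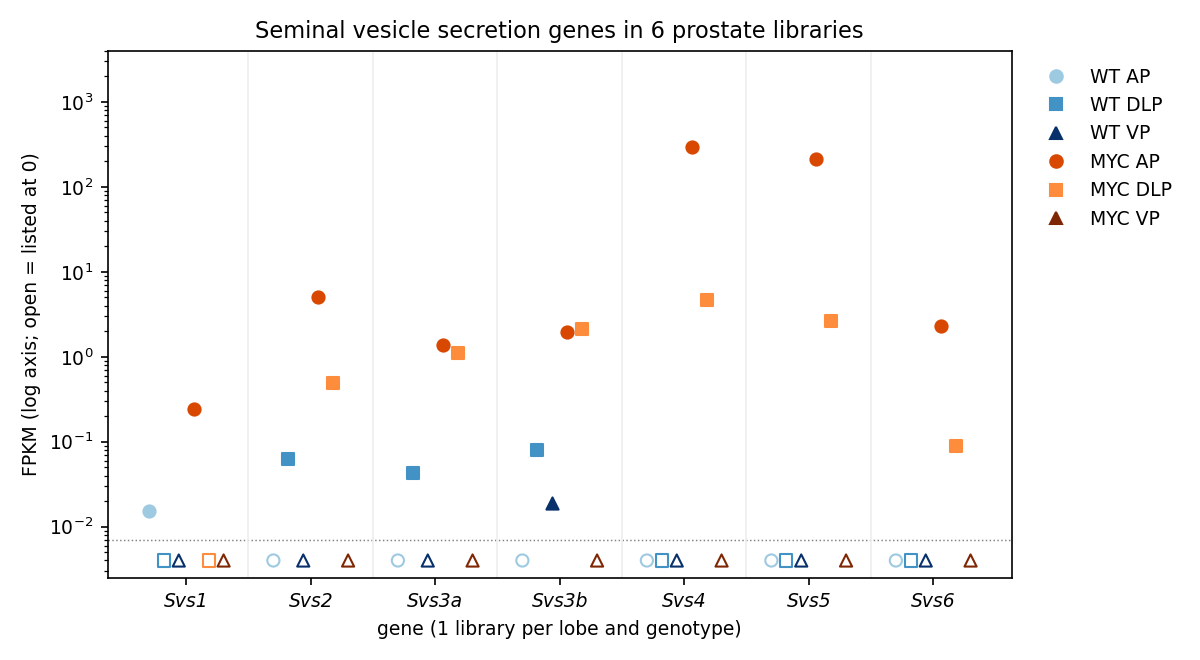
FPKM (log axis) of the 7 genes in each of the 6 libraries, 1 point per library, with open symbols along the bottom for values listed at 0. MYC AP holds Svs4 and Svs5 at 292.5 and 212.0 FPKM, while Svs3a and Svs3b lie at about the same level in MYC AP and MYC DLP, and no gene has a value above 0 in MYC VP.

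Svs2, the main clotting protein gene, had 5.057 FPKM in MYC AP (347 reads), 0.4846 FPKM in MYC DLP (23 reads) and 0.0621 FPKM in WT DLP (4 reads). It is listed at 0 in WT AP, WT VP and MYC VP, so that among AP libraries it was seen in MYC AP and among VP libraries in neither. Its difference on the log2(FPKM + 1) scale was 2.60 in AP and 0.48 in DLP. In MYC DLP its level was 7.804 times that in WT DLP, with a 95% counting interval from 2.666 to 31.04. All such intervals start from exact binomial (Clopper-Pearson) intervals on the estimated reads compared. They were carried over to FPKM and cover counting error only.

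Svs6 had 2.329 FPKM in MYC AP (39 reads) and 0.08836 FPKM in MYC DLP (1 read), and is listed at 0 elsewhere. Although its promoter was the one most like that of Svs5, its level in MYC AP was far lower. The ratio of Svs5 to Svs6 there was 91.02 (interval 66.8 to 128.8). The Svs5 and Svs6 transcripts themselves were 54.97% identical and shared no run of 75 bases, the length of a read. Svs1, the amine oxidase relative, had the lowest level of the 7 in MYC AP, 0.2403 FPKM (31 reads). WT AP had 0.01521 FPKM (1 read), and the other 4 libraries are listed at 0. Its ratio of MYC AP to WT AP was 15.8, with an interval from 2.633 to 643.9, although its log2(FPKM + 1) difference was only 0.29. A long non-coding RNA gene that overlaps Svs1, 4930563H07Rik, is listed at 0 in every library.

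Svs3a and Svs3b followed another pattern. Svs3b had 1.945 FPKM in MYC AP (102 reads) and 2.13 FPKM in MYC DLP (78 reads). In the WT mouse it had 0.081 FPKM in the DLP (4 reads) and 0.01924 in the VP (1 read), and it is listed at 0 in WT AP and MYC VP. Svs3a had 1.386 FPKM in MYC AP (69 reads), 1.113 FPKM in MYC DLP (38 reads) and 0.04266 FPKM in WT DLP (2 reads), and is listed at 0 in the other 3 libraries. Both genes were therefore about as high in the DLP as in the AP of the MYC mouse. In DLP the ratio of MYC to WT was 26.1 for Svs3a (interval 6.745 to 223.3) and 26.3 for Svs3b (9.869 to 98.92). The log2(FPKM + 1) differences were 1.25 and 1.56 in AP and 1.02 and 1.53 in DLP for Svs3a and Svs3b. These genes share 395 runs of 75 bases, 35.4% of those of Svs3a and 33.6% of those of Svs3b, so how their reads were divided is uncertain. Their sum does not depend on that division.

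In AP, 6 of the 7 genes were at least 2-fold higher in MYC than in WT on the log2(FPKM + 1) scale, against a background of 1.12% of all 24908 genes. Svs1 was the exception, although with a pseudocount of 0.1 FPKM its difference was 1.56. The median difference of the 7 genes was 1.74, and that of all genes was 0.00. In DLP, 4 of 7 were at least 2-fold higher (Svs3a, Svs3b, Svs4 and Svs5), against 3.85% of all genes. In VP, 0 of 7 were, against 3.76%, and no read of any of the 7 was estimated in MYC VP. Between the MYC libraries, Svs2, Svs4, Svs5 and Svs6, 4 of 7, were at least 2-fold higher in AP than in DLP, against 1.89% of all genes. The genes averaging 1 FPKM or more numbered 12361. Of the family, 2 passed this filter, Svs4 and Svs5, and both passed through MYC AP alone, so that they had to differ. Among the genes that passed, the shares at least 2-fold higher were 2.05% in AP, 6.46% in DLP, 6.88% in VP and 3.49% in MYC AP against MYC DLP.

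Summed over the 7 genes, the level was 515.5 FPKM in MYC AP, which is 0.1355% of the FPKM of that library and rests on 12946 estimated reads. The sum was 11.12 FPKM in MYC DLP, from 265 reads, and 0.1858 FPKM in WT DLP. The WT AP sum of 0.01521 FPKM and the WT VP sum of 0.01924 FPKM rest on 1 read each, and MYC VP has 0. MYC AP thus held 97.85% of the sum over all libraries (interval 97.59 to 98.08). This interval is approximate, since it was taken on reads pooled over libraries of unequal depth and shifted to the FPKM share. Gene by gene, the share of the 6-library sum that lay in MYC AP was 98.78% for Svs5, 98.42% for Svs4, 96.35% for Svs6, 94.05% for Svs1 and 90.24% for Svs2. It was 54.52% for Svs3a and 46.58% for Svs3b. In bulk RNA, fewer cells of a type and less RNA per cell cannot be told apart, so these sums do not count cells.

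The proportions of the 7 genes within a library do not depend on how libraries are scaled, and they differed between MYC AP and MYC DLP. In MYC AP, Svs4 made up 56.75% and Svs5 41.13% of the summed FPKM, 97.87% together (interval 97.7 to 98.04). The remainder was 0.981% Svs2, 0.4518% Svs6, 0.3772% Svs3b, 0.2688% Svs3a and 0.0466% Svs1. In MYC DLP, Svs4 and Svs5 together made up 65.69% (59.87 to 71.05), with 42.1% from Svs4 and 23.59% from Svs5. Svs3a and Svs3b together made up 29.16% there (24.25 to 34.57), against 0.646% in MYC AP (0.5528 to 0.7505). These intervals do not overlap, but they cover only the counting error of approximate reads. Variation between libraries was not tested. Svs2 was 4.357% of the sum in MYC DLP (2.755 to 6.54), also above its share in MYC AP. In WT DLP, the 10 reads fell on Svs2 (4), Svs3a (2) and Svs3b (4), and Svs4 and Svs5 are listed at 0 there.

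**Figure D2:**
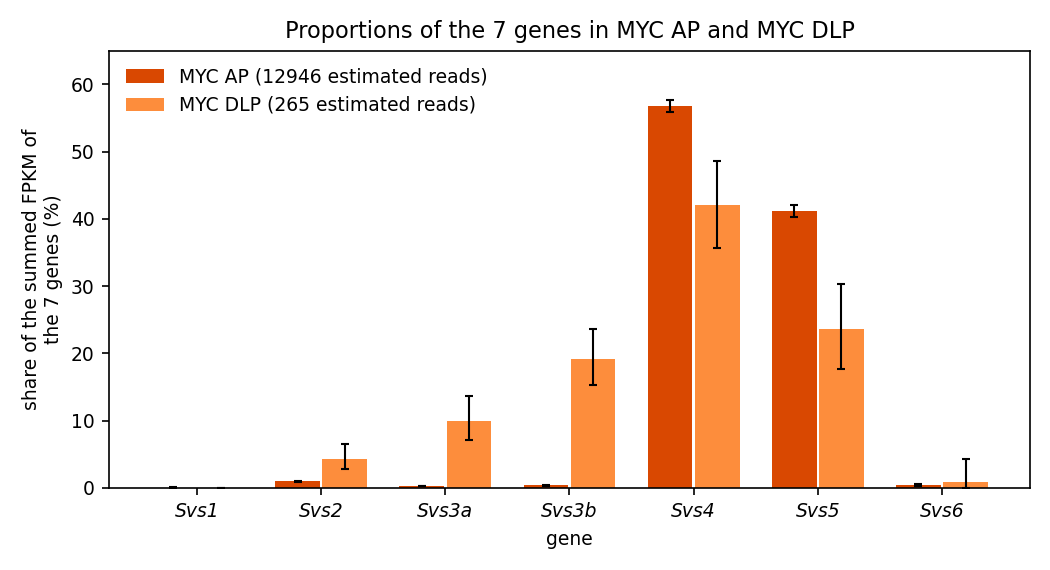
Share of each gene in the summed FPKM of the 7 genes (percent, linear axis from 0) in MYC AP and MYC DLP, with bars for the 95% counting interval. Svs4 and Svs5 make up 97.87% in MYC AP and 65.69% in MYC DLP, where Svs3a and Svs3b add 29.16%.

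The ratio of MYC DLP to MYC AP was not the same for all 7 genes. The level in MYC DLP was 1.601% of that in MYC AP for Svs4 (interval 1.272 to 1.968) and 1.238% for Svs5 (0.8776 to 1.692). These intervals overlap. For Svs6 it was 3.793%, resting on 1 read in MYC DLP (0.0914 to 21.88). For Svs2 it was 9.582% (5.987 to 14.6), above both. For Svs3a it was 80.35% (52.06 to 119.8) and for Svs3b 109.5% (81.15 to 149.7). Over 12287 genes averaging 1 FPKM or more and above 0 in both libraries, the median of this percentage was 105.6. The 5th percentile was 49.98 and the 95th percentile 227.1. Svs3a and Svs3b therefore sat within the range of most of these genes, and Svs2, Svs4, Svs5 and Svs6 below the 5th percentile. Of the 7 genes, only Svs4 and Svs5 average 1 FPKM or more, so the others were set against genes of higher average level. Svs1, with no read in MYC DLP, had an upper limit of 18.25%.

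**Figure D3:**
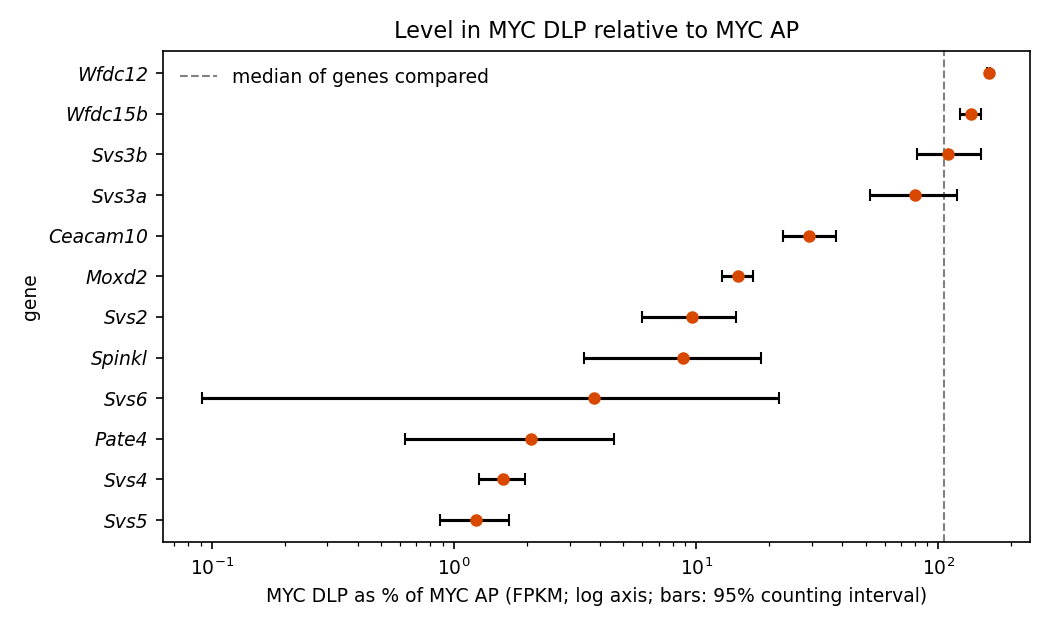
Level in MYC DLP as a percentage of that in MYC AP (FPKM, log axis), with 95% counting intervals, for 6 of the 7 genes, other seminal vesicle genes, 2 WAP-domain neighbours and Moxd2. Svs4, Svs5 and Pate4 lie between 1.238% and 2.077%, while Svs3a, Svs3b, Wfdc12 and Wfdc15b lie near or above the dashed median of the genes compared, 105.6%.

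Within a library, the ratio of Svs4 to Svs5 was 1.38 in MYC AP (1.33 to 1.431) and 1.784 in MYC DLP (1.204 to 2.666). The ratio of Svs3b to Svs3a was 1.403 (1.019 to 1.924) and 1.913 (1.3 to 2.938). The intervals of the libraries overlapped for each of these ratios, whose difference was not tested, and that of Svs3b to Svs3a does not cover the uncertain division of their reads. The ratio of Svs4 to Svs3b was 150.4 in MYC AP (124.3 to 185.5) and 2.198 in MYC DLP (1.584 to 2.998), and that of Svs4 to Svs2 was 57.84 (51.93 to 64.58) and 9.662 (6.014 to 15.97). For these ratios the intervals of the libraries did not overlap.

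The genes next to the cluster on chromosome 2 were read for comparison. At lower coordinates than Svs2, beyond the end of that minus-strand gene, stand genes of small secreted protease inhibitors with a WAP domain. One of them, Wfdc12, had between 0.0755 FPKM (AP) and 0.1634 FPKM (DLP) in the WT mouse. In the MYC mouse it had 1028 FPKM in the AP, 1657 in the DLP and 62.74 in the VP. It was thus higher in all 3 MYC libraries, with log2(FPKM + 1) differences of 9.90, 10.48 and 5.79, and highest in DLP. Wfdc15b, the gene next to Svs2, is listed at 0 in WT AP, while its WT DLP level was 1.153 FPKM and its WT VP level 0.0548 FPKM. In the MYC mouse it had 54.28 FPKM in the AP, 73.58 in the DLP and 1.258 in the VP, with log2(FPKM + 1) differences of 5.79, 5.11 and 1.10. Its level in MYC DLP was 135.6% of that in MYC AP and that of Wfdc12 161.1%. Of the neighbours beyond the cluster, Sdc4 had 163% and Sys1 162.6%. A value near or above the median of the genes compared is thus not particular to the WAP-domain genes. Slpi, itself a protease inhibitor gene and so left out of this comparison, had 1241%. Wfdc15a is listed at 0 in every library, and Wfdc5 did not exceed 0.0814 FPKM.

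On the other side of the cluster, Slpi, an inhibitor of leukocyte proteases, had 0.9933 FPKM in the AP, 0.0633 in the DLP and 0 in the VP of the WT mouse. The MYC mouse had 0.536 FPKM in the AP, 6.654 in the DLP and 0.327 in the VP. It was high in MYC DLP and low in MYC AP, the reverse of Svs5 beside it. Matn4 stayed between 0.2867 and 0.9025 FPKM, Rbpjl between 0 and 0.0282 FPKM and Kcns1 between 0 and 0.0776 FPKM. Sys1, a gene of a Golgi protein, had 10.6 FPKM in WT AP and 11.32 FPKM in MYC AP. Sdc4, a cell surface proteoglycan, had 302.6 and 238.2 FPKM there. Levels at or near 0 in WT AP and above 1 FPKM in MYC AP were thus found in the genes from Wfdc12 to Svs5, with Wfdc15a as the exception, and not in the genes outside. Beside Svs1 on chromosome 6, Doxl2 is listed at 0 in all 6 libraries, and Aoc1, a copper amine oxidase gene, did not exceed 0.1104 FPKM.

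**Figure D4:**
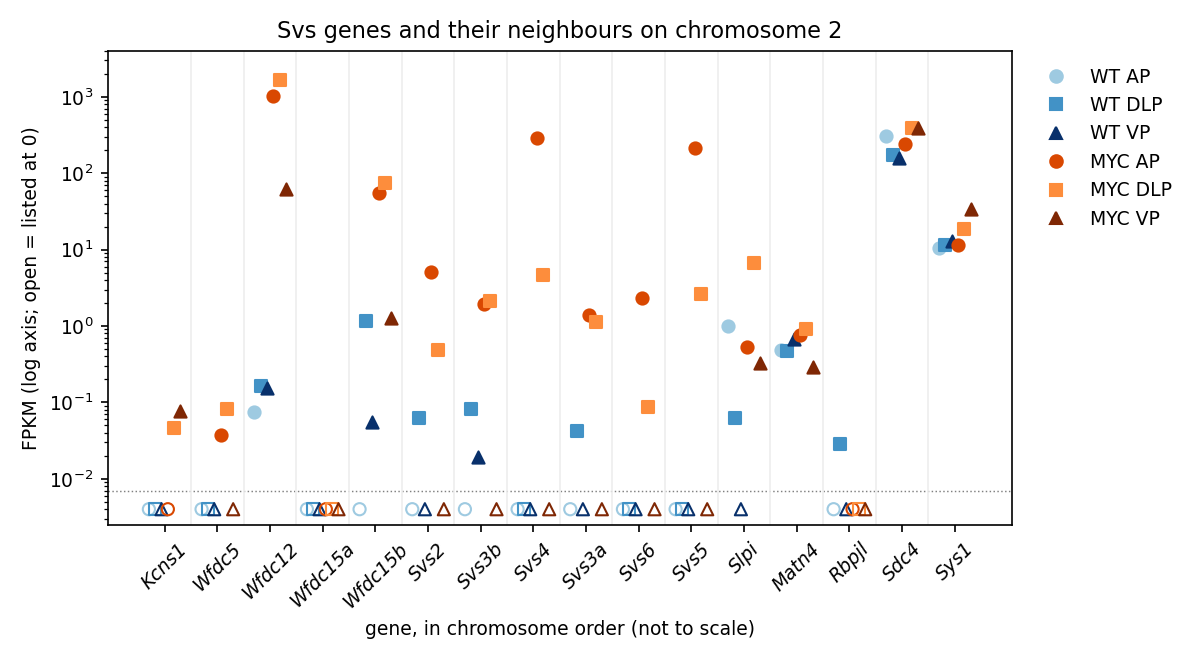
FPKM (log axis) of the cluster and its neighbours in chromosome order (evenly spaced, not to scale), 1 point per library, open symbols for values listed at 0. Wfdc12 and Wfdc15b are highest in MYC DLP, at 1657 and 73.58 FPKM, whereas Svs2, Svs4, Svs5 and Svs6 are highest in MYC AP and the genes at either end differ little between the AP libraries.

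Other genes of seminal vesicle secretion gave a mixed picture. Of a list of 7, 4 exceeded their WT AP level at least 2-fold in MYC AP (Pate4, Spinkl, Ceacam10 and Spink1). The background was 1.12% of all genes and 2.05% of those averaging 1 FPKM or more. The list median was 2.57 on the log2(FPKM + 1) scale. Pate4, also known as caltrin, a calcium transport inhibitor of seminal fluid, had 8.545 FPKM in MYC AP (372 reads), 0.0966 FPKM in WT AP and 0.1775 FPKM in MYC DLP, and is listed at 0 in the other 3 libraries. Its level in MYC DLP was 2.077% of that in MYC AP (0.6265 to 4.57), an interval that overlaps those of Svs4 and Svs5. The ratio of Svs4 to Pate4 was 34.23 in MYC AP (30.82 to 38.05) and 26.38 in MYC DLP (11.57 to 88.58). Pate4 in MYC DLP rests on 5 reads, so that ratios several-fold apart would lie within these intervals.

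Spinkl, a Kazal-type inhibitor-like protein of seminal plasma, had 5.884 FPKM in MYC AP and 0.5208 FPKM in MYC DLP, is listed at 0 in WT AP and MYC VP, and had at most 0.2083 FPKM in WT DLP and WT VP. Ceacam10, a seminal vesicle glycoprotein gene, had 0.6499 FPKM in the AP, 1.709 in the DLP and 3.211 in the VP of the WT mouse, against 8.79, 2.575 and 3.219 FPKM in those of the MYC mouse. It was thus present in every library. Spink1, a trypsin inhibitor, had 7.041 FPKM in MYC AP but 25232 FPKM in WT VP, and so marks no single gland here. Sva, the seminal vesicle antigen gene, is listed at 0 in MYC AP and had 0.0453 FPKM in WT VP alone. Serpine2, a serine protease inhibitor, had 20.31 FPKM in WT AP and 24.14 FPKM in MYC AP, a log2(FPKM + 1) difference of 0.24. The gene 9530002B09Rik had 348.8 FPKM in WT AP and 288.7 FPKM in MYC AP. It was higher in the ventral lobe, at 6649 FPKM in the WT and 2916 in the MYC mouse, and had 1249 and 140.2 FPKM in the DLP, so that it too marks no single gland here.

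Of 7 transcription factors of the Wolffian duct, 0 exceeded their WT AP level 2-fold in MYC AP, as did 1.12% of all genes, so that the count says nothing particular about this list. The list median was 0.01. Pax2 and Pax8 had at most 0.015 and 0.0358 FPKM in any library. Hoxa10 had 8.699 FPKM in WT AP and 13.32 FPKM in MYC AP, and Hoxa11 6.556 and 7.985 FPKM. Hoxa9 had 6.533 and 7.235 FPKM, Hoxd10 8.851 and 8.597 FPKM, and Hoxd11 6.64 and 5.806 FPKM. Genes of the other ducts nearby were near 0 in MYC AP. The 12 genes of epididymis and vas deferens summed to 0.2021 FPKM in MYC AP and to between 0.1048 and 0.6371 FPKM over the libraries, none of them 2-fold higher. Akr1b7 and Defb42 were their highest in MYC AP, at 0.1531 and 0.0489 FPKM. The 6 sperm genes summed to 0 FPKM in MYC AP and to at most 0.032 FPKM in any library.

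Markers of further cell types that a dissected lobe can hold were compared between the AP libraries, where 1.12% of all genes, and 2.05% of those averaging 1 FPKM, were at least 2-fold higher in MYC. Of 6 urothelium genes, 3 were at least 2-fold higher in MYC AP, with a median of 1.14, and their sum was 21.51 FPKM in WT AP and 55.2 FPKM in MYC AP. In MYC AP, Upk1a was the highest of them, at 9.267 FPKM in WT AP and 29.1 in MYC AP, followed by Upk1b, at 9.96 and 20.41 FPKM. Both are plaque proteins of the bladder lining, but Upk1a had 267.7 FPKM in WT DLP and 493.0 in WT VP and so marks no single tissue here. The other genes of the list were mixed. Upk3a is listed at 0 in WT AP and had 1.596 FPKM in MYC AP, and Upk2 had 0.7619 and 3.405 FPKM. Upk3b had 0.9831 FPKM in WT AP and 0.1307 in MYC AP, and Krt20 had 0.5392 and 0.5611 FPKM. Of 10 fibroblast and matrix genes, 3 were 2-fold higher in MYC AP with a median of 0.78, and the sum was 1350 and 1622 FPKM. Dcn, a matrix proteoglycan, had 1060 and 999.3 FPKM, and the collagen gene Col1a2 47.23 and 126.8 FPKM. None of 10 smooth muscle genes was 2-fold higher, with a median of 0.60 and a sum of 390.9 and 528.4 FPKM. Tagln had 98.33 and 143.7 FPKM, and Acta2 67.69 and 114.7 FPKM. The part of these cell types in the levels of the Svs genes was not tested.

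Epithelial marker lists had negative medians in AP. The luminal list had a median of -0.25 with 0 of 7 genes 2-fold higher, and its sum was 5327 FPKM in WT AP and 3970 FPKM in MYC AP. Its highest genes in MYC AP were Cldn4 (2730 FPKM in WT AP and 1458 FPKM in MYC AP) and Krt19 (390.8 and 728.0 FPKM), which alone of the 7 was higher in MYC AP. Over all 24908 genes, 1.12% were at least 2-fold higher in MYC AP and 80 genes at least 2-fold lower. Over the 12361 averaging 1 FPKM or more, 2.05% were higher and 74 genes lower. The basal list had a median of -0.40, with 1 of 6 at least 2-fold higher and 2 lower, and a sum of 2294 and 1235 FPKM. Its highest in MYC AP were Krt15 (461.6 and 397.8 FPKM) and Krt14 (760.5 and 333.1 FPKM), and its higher gene was Trp63 (5.794 and 19.23 FPKM). The blood cell list had a median of 0.03 with 0 of 6 higher and a sum of 87.83 and 81.6 FPKM, led by Lyz2 (46.03 and 48.04 FPKM) and Cd68 (31.19 and 21.45 FPKM). In DLP, all 6 blood cell genes were at least 2-fold higher in MYC, against 3.85% of all genes and 6.46% of those averaging 1 FPKM, and their sum was 33.65 FPKM in WT and 211.8 FPKM in MYC. The part of blood cells in the DLP levels of Svs3a and Svs3b was not tested.

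Genes of prostate secretion were read in the same libraries. Tgm4, the transglutaminase that acts on SVS2, had 3016 FPKM in WT AP and 2545 FPKM in MYC AP. Pbsn, a prostate secretion, had 3597 and 3084 FPKM. Of 9 prostate lobe secretion genes, which all averaged 1 FPKM or more, 5 were at least 2-fold higher in MYC AP (2.05% of such genes), with a median of 1.28, and the 9 summed to 7312 and 7620 FPKM. These 5 were Sbp (0.6803 FPKM in WT AP and 32.59 in MYC AP), Sbpl (0.2337 and 6.418), Defb50 (361.2 and 1147), Msmb (16.43 and 48.66) and Clu (303.6 and 741.1), named after their values were seen. Of 6 factors of the urogenital sinus and prostate, none was 2-fold higher, with a median of 0.37, led by Foxa1 (165.4 and 106.4 FPKM).

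The genes whose distribution over the 6 libraries was most like that of the summed Svs genes were ranked by the overlap of their shares per library, 100% being the same distribution. Among 8077 genes with at least 5 FPKM in MYC AP, Pate4 ranked 1st with 98.91%, against a median of 18.75%. The next 9 were genes of microRNAs and small nucleolar RNAs (Mir546, Mir2139, Mir678, Mir7060, Mir6990, Snora15, Mir8107, Snord35a and Snora30), all at 97.85%. With such genes left out, a choice made after seeing the data, Spinkl (90.39%) and Moxd2 (89.19%) followed Pate4. Moxd2, a gene of a monooxygenase family, is listed at 0 in the 3 WT libraries and in MYC VP. Its levels were 23.65 FPKM in MYC AP and 3.51 FPKM in MYC DLP. Its level in MYC DLP was 14.84% of that in MYC AP (12.81 to 17.19), nearer to Svs2 than to Svs4. Olfm4, a secreted glycoprotein gene, came 4th with 73.63%, and had 1.812 FPKM in WT AP and 8.157 FPKM in MYC AP. Likeness over 6 libraries, of which 1 holds most of the signal, is a description only.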

How the data were processed

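Bulk RNA-seq of 6 libraries (3 lobes of 1 WT and 1 MYC mouse) was used, grouped by the titles. The authors mapped 75-base single-end reads with STAR and quantified genes with Cufflinks (VIPER workflow, mm10 per the labels), and deposited 1 table of FPKM. The methods speak of read counts, but the deposited values are not whole, so no count model was run. The gene annotation is not given in the sources used here. All 24908 genes were compared as log2(FPKM + 1) differences with a 2-fold threshold. The planned filter was an average of 1 FPKM or more per gene, and counts without it are given for all 7 genes.

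Mapped reads per library were estimated from the steps between low FPKM values of genes with 1 exon and 1 transcript longer than 600 bases. Reads per gene followed from FPKM, depth and the GENCODE M1 transcript length less 200 bases. For the Svs genes, the transcript was the one whose values below 100 reads lay nearest to whole numbers. Of 14 values of the Svs genes between 1 and 99 reads, 10 came within 0.15 of a whole number, so that reads are approximate. That count is no independent check of the reads, since the choice of transcript and the estimate of depth both favour whole numbers. Intervals are exact binomial (Clopper-Pearson, 95%) on estimated reads, carried over to FPKM, and a floor is 3 reads. Positions and promoter sequences are those of RefSeq on GRCm38.p6, matched by symbol.

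The members and gene lists were chosen with earlier results of these data known. The genes named were the 7 members, all genes of the lists of other seminal vesicle genes and Wolffian duct factors, the 2 highest in MYC AP of every other list, the chromosomal neighbours and the 10 genes of most similar distribution. The other urothelium genes, Trp63, Moxd2 and Olfm4, outside this rule as first written, were named after their values were seen, as was Myc as a check. Some genes that the rule names are not reported here. Alternatives were pseudocounts of 0.1 and 0.01 FPKM, a 4-fold threshold, no filter or an average of 10 FPKM or more, and 4 scalings of the libraries. The computations were tested on simulated libraries. Python 3.11.15, numpy 2.4.6, pandas 2.3.3, scipy 1.17.1, matplotlib 3.10.9 and Biopython 1.88 were used.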

Additional observations from a re-analysis of the deposited data

Results flagged for a closer look

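Spink1, a trypsin inhibitor of the seminal vesicle list, was higher in MYC than in WT in AP and DLP, by 3.01 and 6.07 on the log2(FPKM + 1) scale, and lower in VP, by -6.46. The lobes thus differed in direction, by -9.47 between VP and AP and by -12.53 between VP and DLP. Upk1a, of the urothelium list, was higher in MYC AP by 1.55 and lower in MYC DLP and MYC VP, at -2.19 and -4.22. The differences from AP were -3.74 in DLP and -5.77 in VP. Of the prostate secretion genes, Defb50 was higher in MYC AP by 1.66 and lower in DLP and VP, at -1.93 and -4.34, differences of -3.60 and -6.00 from AP. Msmb was higher in MYC AP by 1.51 and lower in DLP and VP, at -4.63 and -6.43, differences of -6.14 and -7.94. Trp63, of the basal list, was higher in MYC AP and MYC DLP, by 1.57 and 1.59, and lower in MYC VP, at -1.20, differences of -2.77 from AP and -2.79 from DLP. With 1 library per group, these differences were not tested.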

How the results depend on the processing

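Among genes averaging 1 FPKM or more, 2 of the 7 genes were at least 2-fold higher in AP and 2 in DLP. The shares of such genes were 2.05% and 6.46%. Both genes passed the filter through MYC AP alone, so the AP count was fixed in advance. Without the filter the counts were 6 and 4, against 1.12% and 3.85% of all genes. With the filter kept, division by the mean of Krt8 and Krt18 gave 4 in AP, and a 4-fold threshold gave 1 in DLP. The share of all genes was not computed for these settings, and rescaling also moves genes past the filter. The summed genes differed between the AP libraries by 8.99 on the log2(FPKM + 1) scale. The difference was 12.13 and 14.32 with pseudocounts of 0.1 and 0.01 FPKM. It was 8.91 with size factors, 9.14 with equal sums of FPKM, 9.05 with equal sums without the 20 highest genes, and 9.85 relative to Krt8 and Krt18. The share in MYC AP, 97.85%, became 98.17% with equal sums, 98.11% without the 20 highest genes, 98.41% relative to Krt8 and Krt18, and 82.71% with each gene weighted alike. The share of Svs3a and Svs3b, counted in estimated reads, which weights long transcripts more, was 1.321% in MYC AP and 43.77% in MYC DLP. The AP median turned negative for the Wolffian duct list with size factors (-0.01) and for the blood cell list with size factors (-0.10) or equal sums without the 20 highest genes (-0.01). Pate4, the most alike by overlap of shares, ranked 9th by correlation of log2(FPKM + 1), where Chordc1 ranked 1st (0.995), and it falls below a minimum of 20 FPKM, where Mir546 ranked 1st. Of the 10 genes most alike, 5 were shared with a minimum of 20 FPKM, 1 with a correlation of log2(FPKM + 1) and 1 without small RNA genes. The causes of these shifts were not tested. No paired analysis was possible because each lobe holds 1 library per genotype, and the 3 lobes come from only 2 mice and are not replicates. WT AP has the fewest reads and so the highest floors.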
